A study of Mus musculus with 9 samples.

Results

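The 10 genes described here, Kdr, Tek, Cdh5, Pecam1, Erg, Tal1, Gata1, Gata2, Klf1 and Runx1, mark blood vessels and blood cells. They serve here as a check of how much vessel and blood cell chromatin the limb buds of each genotype contributed, and they are 10 of the 21864 protein-coding genes of the annotation. For each gene, peaks of acetylated histone H3 lysine 27 (H3K27ac), a mark of active promoters and enhancers, were taken from the gene span and 20 kb to either side. The tissue was the forelimb bud of E10.5 mouse embryos with 33 to 34 somites, whose strain background is labelled mixed, and 1 immunoprecipitation used the paired buds of a single embryo. The 3 genotypes are wild type (WT), Shh-/-, which lacks the Sonic hedgehog ligand (per the study's methods the null allele tm1amc), and Shh-/-;Gli3-/- (the double mutant), which also lacks GLI3, the main repressor of the pathway in the limb (the null allele Xt-J). Those methods place both null alleles on Swiss Webster stock, whereas the label says mixed. Each genotype had 2 H3K27ac replicates and 1 input, and a single peak list, so no difference between genotypes could be set against the spread between embryos and no p-value is given. Genotypes were taken from the sample titles, since the genotype field says wild type throughout.

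The early vasculature of a limb bud is a plexus of endothelial cells that grows in from the trunk, and the circulating cells inside it are mostly primitive erythroid cells. Endothelial cells depend on the receptor tyrosine kinases KDR (the main VEGF receptor) and TEK (the angiopoietin receptor TIE2), are joined by the adhesion molecules CDH5 (VE-cadherin) and PECAM1, and are specified by ETS-family factors such as ERG. TAL1, GATA2 and RUNX1 act in blood stem and progenitor cells and in the endothelium from which these arise, while GATA1 and KLF1 drive red cell genes, the globins among them. Both lineages are minorities in a bud made mainly of mesenchyme, and in a whole-tissue assay fewer cells of a type and less acetylation per cell cannot be told apart.

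The sequences below are shown because they carry the result: regions at the Erg start and at Pecam1 found in all lists, the regions at Tek, Runx1 and Tal1 that differed between lists, and 3 promoters for contrast, those of Erg (a peak over the printed bases in the double mutant list), Kdr (no peak) and Klf1 (no peak over the printed bases). The Pecam1 region was joined from peaks at most 1 kb apart, and its WT peak lies outside the printed bases. Peak sequences are from the plus strand of GRCm38 (mm10), cut to 300 bases around the position of the strongest statistic where a peak was longer. The Erg start peak is chr16:95585400-95585599, the Pecam1 peak is chr11:106660750-106660949, the Tek windows are chr4:94745300-94745449 (WT) and chr4:94766025-94766324 (double mutant), the Runx1 window is chr16:92738700-92738999 and the Tal1 peak is chr4:115056950-115057099. The promoters are from RefSeq (GRCm38.p6), on the strand of the gene, from 250 bases before to 50 after its start: chr16:95586544-95586843 for Erg, chr5:75978406-75978705 for Kdr and chr8:84901732-84902031 for Klf1. Capitals mark short motifs of factor families, found on either strand, and these can overlap one another. The motif searched for GATA factors was AGATAA. For ETS factors such as ERG it was AGGAAG, a core shared by much of the family. The E-box that TAL1 binds with its partners was searched as CAGATG. For RUNX factors the letters were TGTGGT, and for KLF factors they were CACACCC. The motif of GLI factors, the effectors of hedgehog signalling, was taken as CCACCCA. The composite of an E-box part and a GATA motif, bound by TAL1 and GATA1 complexes, was CTGNNNNNNNNGATAA.
Erg start, WT peak: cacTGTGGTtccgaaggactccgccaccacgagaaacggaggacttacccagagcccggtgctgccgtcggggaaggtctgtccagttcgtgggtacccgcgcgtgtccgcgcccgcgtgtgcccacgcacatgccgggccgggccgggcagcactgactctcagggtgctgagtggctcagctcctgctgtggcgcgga
Pecam1 3′ intron, Shh-/- peak: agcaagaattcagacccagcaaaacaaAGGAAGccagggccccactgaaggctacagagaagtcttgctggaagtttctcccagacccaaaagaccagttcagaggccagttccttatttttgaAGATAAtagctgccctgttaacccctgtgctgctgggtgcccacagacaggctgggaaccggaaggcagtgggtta
Tek intron, WT peak: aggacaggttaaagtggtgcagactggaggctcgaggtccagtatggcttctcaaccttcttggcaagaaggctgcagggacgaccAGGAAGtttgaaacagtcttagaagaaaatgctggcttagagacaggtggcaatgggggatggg
Tek intron, double mutant peak: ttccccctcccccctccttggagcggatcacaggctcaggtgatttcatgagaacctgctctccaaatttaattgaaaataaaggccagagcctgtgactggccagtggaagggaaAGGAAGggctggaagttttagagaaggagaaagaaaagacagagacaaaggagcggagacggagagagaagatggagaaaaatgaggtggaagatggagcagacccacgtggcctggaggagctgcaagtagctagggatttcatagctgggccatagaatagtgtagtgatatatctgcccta
Runx1 intron, double mutant peak: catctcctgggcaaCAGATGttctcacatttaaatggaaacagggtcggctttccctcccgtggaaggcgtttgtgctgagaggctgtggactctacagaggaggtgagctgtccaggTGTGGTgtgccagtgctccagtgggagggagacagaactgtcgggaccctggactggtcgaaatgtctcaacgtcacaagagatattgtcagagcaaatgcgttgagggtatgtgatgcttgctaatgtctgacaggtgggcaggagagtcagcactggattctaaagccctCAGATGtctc
Tal1 start, Shh-/- peak: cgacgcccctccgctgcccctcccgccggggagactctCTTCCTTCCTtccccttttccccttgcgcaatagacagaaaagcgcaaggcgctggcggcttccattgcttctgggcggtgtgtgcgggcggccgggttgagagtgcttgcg
Erg promoter: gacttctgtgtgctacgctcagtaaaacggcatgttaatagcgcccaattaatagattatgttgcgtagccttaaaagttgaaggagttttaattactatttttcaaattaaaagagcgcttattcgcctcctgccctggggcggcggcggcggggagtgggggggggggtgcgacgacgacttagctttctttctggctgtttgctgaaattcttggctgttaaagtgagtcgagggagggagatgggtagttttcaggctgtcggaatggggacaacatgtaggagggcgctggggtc
Kdr promoter: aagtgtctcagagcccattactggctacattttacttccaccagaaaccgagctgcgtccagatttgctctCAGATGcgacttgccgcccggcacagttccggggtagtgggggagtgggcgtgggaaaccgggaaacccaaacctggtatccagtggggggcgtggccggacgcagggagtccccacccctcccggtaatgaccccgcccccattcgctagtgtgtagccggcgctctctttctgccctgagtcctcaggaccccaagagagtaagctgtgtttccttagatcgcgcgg
Klf1 promoter: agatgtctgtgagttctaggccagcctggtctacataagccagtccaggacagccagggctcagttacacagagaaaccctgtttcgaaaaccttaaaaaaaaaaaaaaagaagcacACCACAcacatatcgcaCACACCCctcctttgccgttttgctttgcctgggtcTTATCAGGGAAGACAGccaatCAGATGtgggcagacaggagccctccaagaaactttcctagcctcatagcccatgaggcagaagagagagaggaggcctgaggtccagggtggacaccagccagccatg

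The 3 lists differed in size and stringency, which bears on every count below. They held 25096 WT, 32085 Shh-/- and 34641 double mutant peaks covering 10.4, 12.9 and 17.1 Mb, and 60.8%, 72.4% and 83.4% of them passed a false discovery rate (FDR) of 0.05. All 16 limb mesenchyme genes examined, Tbx5 and Prrx1 among them, had a promoter peak in every list, as did all 10 housekeeping genes. Shh had no peak in its 20 kb window, and Gli3 had a promoter peak of 3850, 3900 and 5100 bp in the WT, Shh-/- and double mutant list, so neither deletion could be checked from peaks.

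To ask whether vessel and blood genes were acetylated at their promoters, peaks were counted that overlapped a promoter window, which began 2 kb before any protein-coding transcript start and ended 1 kb after it. Of the 10 genes, 1 had a promoter peak in the WT list (Erg), 3 in the Shh-/- list (Erg, Tal1 and Klf1) and 2 in the double mutant list (Erg and Pecam1). Among all protein-coding genes the shares were 44.3%, 48.2% and 46.3% in the same order, so the 10 genes lay below the background in each list. Erg was the only gene of the 10 with a promoter peak in every list (background 41.7%), and 6 of the 10, Kdr, Tek, Cdh5, Gata1, Gata2 and Runx1, had none in any list (background 48.9%). Tal1, Klf1 and Pecam1, 3 of the 10, had one in 1 list each (background 9.47% for 1 or 2 lists). The promoter peaks present were narrow. The widest at each gene spanned 200 bp at Erg in WT. In Shh-/- limb buds it spanned 200 bp at Erg, 150 bp at Tal1 and 150 bp at Klf1, and in the double mutant 450 bp at Erg and 250 bp at Pecam1. Over all genes with a promoter peak, the median of the widest peak was 550, 600 and 750 bp in the WT, Shh-/- and double mutant list, so each of these 6 values lay below the median of its list. The WT and double mutant peaks at Erg and the Shh-/- peak at Klf1 met the promoter window only at its edge. Their strongest points lay 1.12, 1.27 and 1.05 kb after the start, beyond its 1 kb limit. In the double mutant list other Erg peaks lay closer, 0.068 and 0.668 kb after the start.

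At Tal1 the Shh-/- peak had an FDR of 0.0842 and at Klf1 an FDR of 0.154, and neither passed 0.05. At that threshold 1 gene of the 10 had a promoter peak in WT, 1 in Shh-/- and 2 in double mutant limb buds (background 39.1%, 45.3% and 44.9%). With a log2 fold over input of at least 3, 0 of the 10 genes had a promoter peak in any list (background 31.3%, 39.3% and 35.7%).

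**Figure D1:**
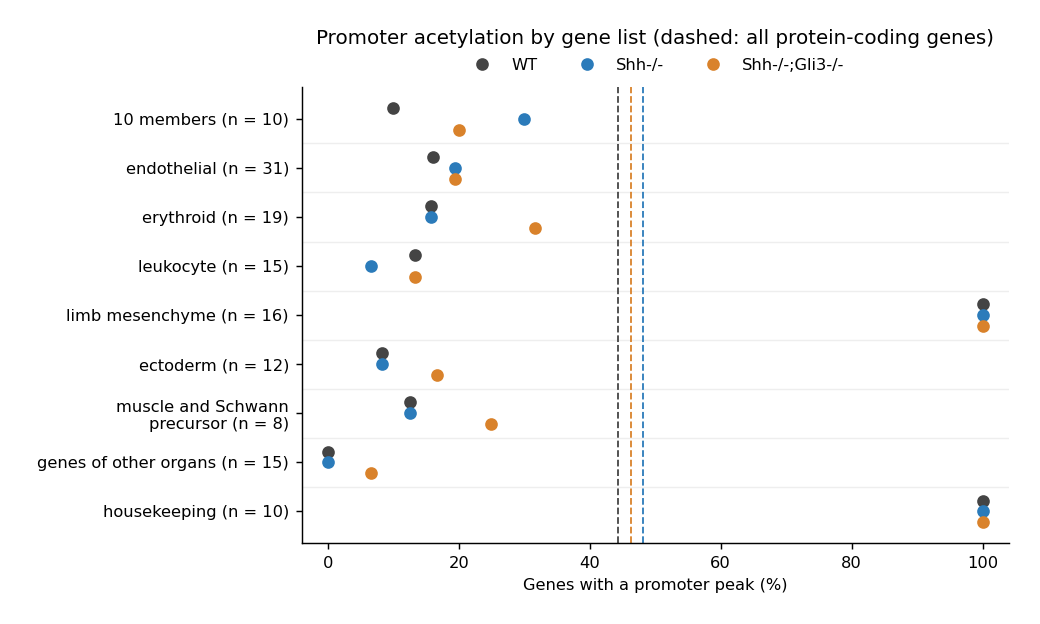
Percentage of genes with a promoter peak (x axis) for the 10 blood and vessel genes and 8 comparison lists (rows, with the number of genes), 1 point per peak list, with dashed lines for all protein-coding genes (44.3%, 48.2% and 46.3%). Limb mesenchyme and housekeeping genes sit at 100% in every list, whereas vessel, blood, ectoderm and other minority lists sit left of the dashed lines in every list.

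Wider lists of genes of the same lineages gave similar counts. Of 31 further endothelial genes, 5 had a promoter peak in WT, 6 in Shh-/- and 6 in double mutant limb buds. Ets1, an ETS factor of endothelium and lymphocytes, was the gene of this list whose promoter differed between lists, with a peak of 600 bp in Shh-/-, 300 bp in the double mutant and none in WT. The 5 genes with a promoter peak in every list, named after their values were seen, were Fli1, Egfl7, Nr2f2, S1pr1 and Nrp1. Fli1, an ETS factor, had peaks of 3400, 2550 and 5200 bp in the WT, Shh-/- and double mutant list, and Nr2f2, a nuclear receptor of venous endothelium that is also known from mesenchyme, had peaks of 3700, 4350 and 4100 bp. The remaining 25 endothelial genes had no promoter peak in any list. Among them, likewise named after their values were seen, were Flt1 and Tie1, close relatives of Kdr and Tek.

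Of 19 erythroid genes found in the annotation (20 were listed), 3 had a promoter peak in WT, 3 in Shh-/- and 6 in double mutant limb buds. The 3 present in every list were Zfpm1 (FOG1, the cofactor of GATA1), Tfrc (the transferrin receptor, used by most dividing cells) and Lmo2 (the adaptor between TAL1 and GATA factors). Those found in the double mutant only included Nfe2 (100 bp), a factor of red cells and platelets, and Alas2 (100 bp), the red cell enzyme of haem synthesis. The 7 globin genes on the list, which encode the main protein of red cells, had no promoter peak in any genotype. Peaks outside promoter windows but within 20 kb were found at Hba-x in every list, at Hba-a1 in WT and Shh-/- and at Hba-a2 in WT only. At Hbb-bh1 and Hbb-y they were in both mutant lists but not in WT, and at Hbb-bt and Hbb-bs in Shh-/- only. Globin genes lie close together, so their windows overlap and can share a peak. Among 15 leukocyte and progenitor genes, 2 had a promoter peak in WT, 1 in Shh-/- and 2 in the double mutant. Myb was present in every list, and Kit, the stem cell factor receptor, had a peak of 200 bp in WT and 150 bp in the double mutant but none in Shh-/- limb buds. The other 13 genes of that list, the macrophage genes Adgre1 and Mrc1 among them, had none.

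Other minority tissues of the bud gave the same range. Of 12 ectoderm genes, 1 had a promoter peak in WT, 1 in Shh-/- and 2 in the double mutant, Grhl2 differing with a peak of 200 bp in the double mutant only. Of 8 genes of muscle and Schwann cell precursors the counts were 1, 1 and 2, with Lbx1 (250 bp) in the double mutant only. Of 15 genes of organs outside the limb, 0 had a promoter peak in WT, 0 in Shh-/- and 1 in the double mutant list. The widest WT promoter peak of the limb mesenchyme genes had a median of 2025 bp and ranged from 100 bp at Tbx2, narrower than that of Erg, to 7500 bp at Meis2, and that of the housekeeping genes had a median of 1175 bp and ranged from 350 bp at Pgk1 to 2250 bp at Ywhaz. The 4 widest in each list were 7500 bp at Meis2, 6800 bp at Meis1, 4200 bp at Lhx9 and 3500 bp at Prrx1 in mesenchyme, and 2250 bp at Ywhaz, 2050 bp at Actb, 1950 bp at Gapdh and 1350 bp at Eef1a1 among housekeeping genes.

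Distal peaks, those within 20 kb of the gene that overlapped no promoter window, were found at Tek, Pecam1 and Erg in every list. Of the 10 genes, 3 had a distal peak in WT, 4 in Shh-/- (Klf1 also) and 5 in double mutant limb buds (Klf1 and Runx1 also), against 25.1%, 27.3% and 25.8% of all protein-coding genes. Of the 15 genes of organs outside the limb, 4 had a distal peak in each list. Of the 31 further endothelial genes, 14, 15 and 17 had one in the same order, and of the 19 erythroid genes 6, 10 and 5. The windows of the 10 genes were longer than those of other genes, with a median of 84.3 kb against 57.4 kb. Per Mb of window there were 6.54 distal peaks at the 10 genes in WT, 10.6 in Shh-/- and 12.3 in the double mutant, and 6.40, 8.25 and 9.18 at all protein-coding genes. These densities rest on Erg. Erg was left out after its values were seen. The other 9 genes then had 3.14, 7.32 and 6.28 distal peaks per Mb in the WT, Shh-/- and double mutant list. Each was below the value for all genes, but that value kept its own peak-rich genes. Leaving out the gene with the most peaks tends to lower a density, so this does not place the 9 genes below the background. In number, there were 8 distal peaks in WT, 13 in Shh-/- and 15 in the double mutant, of which 3, 7 and 6 lay outside Erg.

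Distal peaks at the 10 genes covered 1650 bp in WT, 3050 bp in Shh-/- and 4400 bp in double mutant limb buds. The Shh-/- over WT ratio was 1.85 and the double mutant over WT ratio 2.67, against 1.40 and 2.0 at all protein-coding genes and 1.25 and 1.66 for the whole lists. Both ratios share the WT list, and the double mutant over Shh-/- ratio was 1.44, against 1.43 at all protein-coding genes. Distal coverage was longer than in WT at 4 of the 10 genes in Shh-/- (background 20.7%) and at 5 of the 10 in the double mutant (background 21.3%), and shorter at 0 of 10 in each (background 13.9% and 12.1%). The remaining genes had no distal peak in either list. Between the mutants, it was longer in the double mutant at 4 genes (background 18.6%) and shorter at 0 (background 15.6%). Erg alone accounted for 1300, 2200 and 2850 bp. Without Erg the covered lengths were 350, 850 and 1550 bp. The order of WT and double mutant depended on the setting. With a log2 fold of at least 3 the double mutant covered 800 bp against 950 bp in WT. Each list was also shortened from its weak end to the covered length of the WT list. No distal peak of the double mutant was then left at the 10 genes, against 1650 bp in WT. This kept all 25096 WT peaks but only 9365 of the double mutant, so the shortened lists differed in stringency. With an FDR below 0.05 the double mutant covered more, 3950 bp against 950 bp in WT. With lists shortened to equal peak numbers it covered 3800 bp against 1650 bp in WT. The double mutant also covered more in the remaining alternatives.

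**Figure D2:**
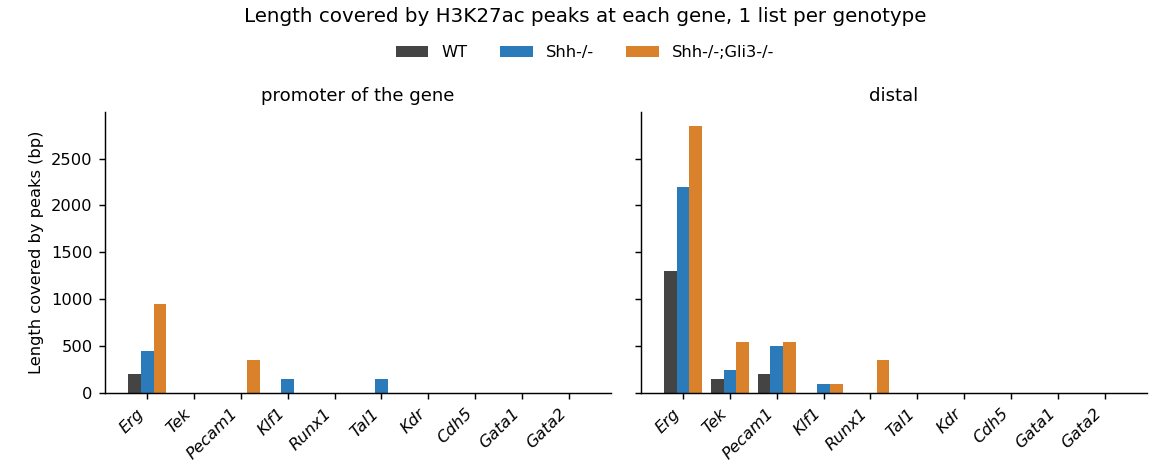
Length in bp (y axis, bars from 0) covered by promoter peaks (left) and distal peaks (right) at each of the 10 genes (x axis), with 1 bar per peak list and hence no error bars. Erg holds most of the distal length in every list (1300, 2200 and 2850 bp), and Kdr, Cdh5, Gata1 and Gata2 have no bar.

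Among the endothelial receptors, Kdr (ENSMUSG00000062960.10, chromosome 5, 75932827 to 75978458, minus strand) had no peak of any kind. The nearest peak to the gene lay 97.0 kb upstream in the WT list, 162 kb upstream in Shh-/- and 96.7 kb upstream in the double mutant. Its promoter, printed above, is rich in G and C (60.7%). Tek (ENSMUSG00000006386.15, chromosome 4, 94739289 to 94874976, plus strand) had no promoter peak but 1 distal peak in WT, 2 in Shh-/- and 2 in the double mutant, all in its first intron. The WT peak (94745300 to 94745449, 150 bp) lay 6.09 kb into the gene with a log2 fold of 3.17 and an FDR of 0.00159. The mutant peaks lay deeper in the same intron, 26.4 to 27.5 kb from the start. In Shh-/- limb buds they spanned 94765850 to 94765949 (FDR 0.175) and 94766750 to 94766899 (FDR 0.0469). In the double mutant they spanned 94765650 to 94765799 (FDR 0.0384) and 94766000 to 94766399 (FDR 0.000974, log2 fold 3.09). The WT peak was in neither mutant list, no WT peak lay in the deeper region, and none of the mutant peaks overlapped each other directly. The sequences of the WT and the wide double mutant peak each hold 1 AGGAAG motif.

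Of the adhesion genes, Cdh5 (ENSMUSG00000031871.9, chromosome 8, 104101625 to 104144511, plus strand) had no peak in any list. The nearest lay 26.2 kb downstream in WT, over the promoter of Bean1, and 78.2 and 78.4 kb upstream in the Shh-/- and double mutant list. Pecam1 (ENSMUSG00000020717.19, chromosome 11, 106654217 to 106750628, minus strand) has an outer start and a group of inner starts 35.2 to 35.4 kb into the gene. The double mutant list alone held promoter peaks, both at the inner start, of 250 bp (106714800 to 106715049, FDR 0.0123) and 100 bp (106715550 to 106715649, FDR 0.0697). Peaks toward the 3′ end, 89.8 to 90.4 kb from the outer start, were in every list. They covered 100 bp in WT (106660450 to 106660549, FDR 0.254), 300 bp in Shh-/- and 200 bp in the double mutant. The Shh-/- peak from 106660750 to 106660949 (FDR 0.00148) and the double mutant peak from 106660700 to 106660899 (FDR 0.00157) overlapped, while the WT peak overlapped neither. The 300-base window at the Shh-/- peak of this 3′ region, which does not include the WT peak, holds 1 AGGAAG and 1 AGATAA motif. That is the only AGATAA among the windows of the 22 regions described below. The other 4 distal regions of Pecam1 were in a single list each, 1 in WT (106728700 to 106728799, FDR 0.168), 2 in Shh-/- (FDRs 0.0247 and 0.0842, both outside the gene) and 1 in the double mutant (106658100 to 106658449, FDR 0.0120), besides the promoter peaks above.

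Erg (ENSMUSG00000040732.20, chromosome 16, 95359169 to 95586593, minus strand) had the most peaks of the 10 genes, with 6 peaks in WT, 9 in Shh-/- and 13 in the double mutant list. ERG maintains endothelial identity and is also known from cartilage and joint precursors. Its strongest region lay in an intron, 116 to 118 kb from the outermost start and upstream of the innermost starts. The WT list held 3 peaks there, the main one (800 bp, log2 fold 3.91, FDR 0.00115), wider than 96.4% of distal WT peaks. The Shh-/- list held 2, the main one (1000 bp, log2 fold 3.36, FDR 0.0001), wider than 97.5% of distal peaks of its list. The double mutant list held 4, the widest (800 bp, log2 fold 2.96, FDR 0.000994), wider than 91.0% of distal peaks. Together they covered 1050 bp in WT, 1250 bp in Shh-/- and 2000 bp in the double mutant. By rank in the authors' order, the best peak of this region stood at 13.1% in WT, 29.7% in Shh-/- and 33.4% in the double mutant. The region was found in all genotypes, and the lists differ in length and stringency, so these ranks do not order the genotypes.

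At the outermost Erg start a region from 95585200 to 95586599 was also shared by all lists. In WT it held 1 peak of 200 bp (95585400 to 95585599, log2 fold 2.99, FDR 0.00269). In Shh-/- it held peaks of 150 bp (95585400 to 95585549, FDR 0.00508) and 100 bp (95586100 to 95586199, FDR 0.175), and in the double mutant 3 peaks of 450, 200 and 200 bp with FDRs of 0.00118, 0.00429 and 0.00764. The WT and the first Shh-/- peak begin at the same base, but the Shh-/- peak ends just outside the promoter window and was counted as distal. The WT peak reached that window only by its edge, and its strongest point lay 1.12 kb from the start. With a narrower promoter window of 500 bp to either side of a start, Erg had no promoter peak in WT. The other Erg peaks were in fewer lists. A region 93.7 to 96.2 kb into the gene was found in Shh-/- (700 bp, lowest FDR 0.00100) and the double mutant (350 bp, lowest FDR 0.0154) only. The Shh-/- and double mutant peaks in it did not overlap. Peaks at the inner starts were found in Shh-/- limb buds only (95458700 to 95458899, FDR 0.00508, and 95523500 to 95523649, FDR 0.0265), and first-intron peaks 13.7 and 15.1 kb from the outermost start in the double mutant only (FDRs 0.00153 and 0.00414). The remaining Erg regions were 2 in WT only (FDRs 0.162 and 0.341), 1 in Shh-/- only (FDR 0.0842) and 1 in the double mutant only (lowest FDR 0.0655).

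**Figure D3:**
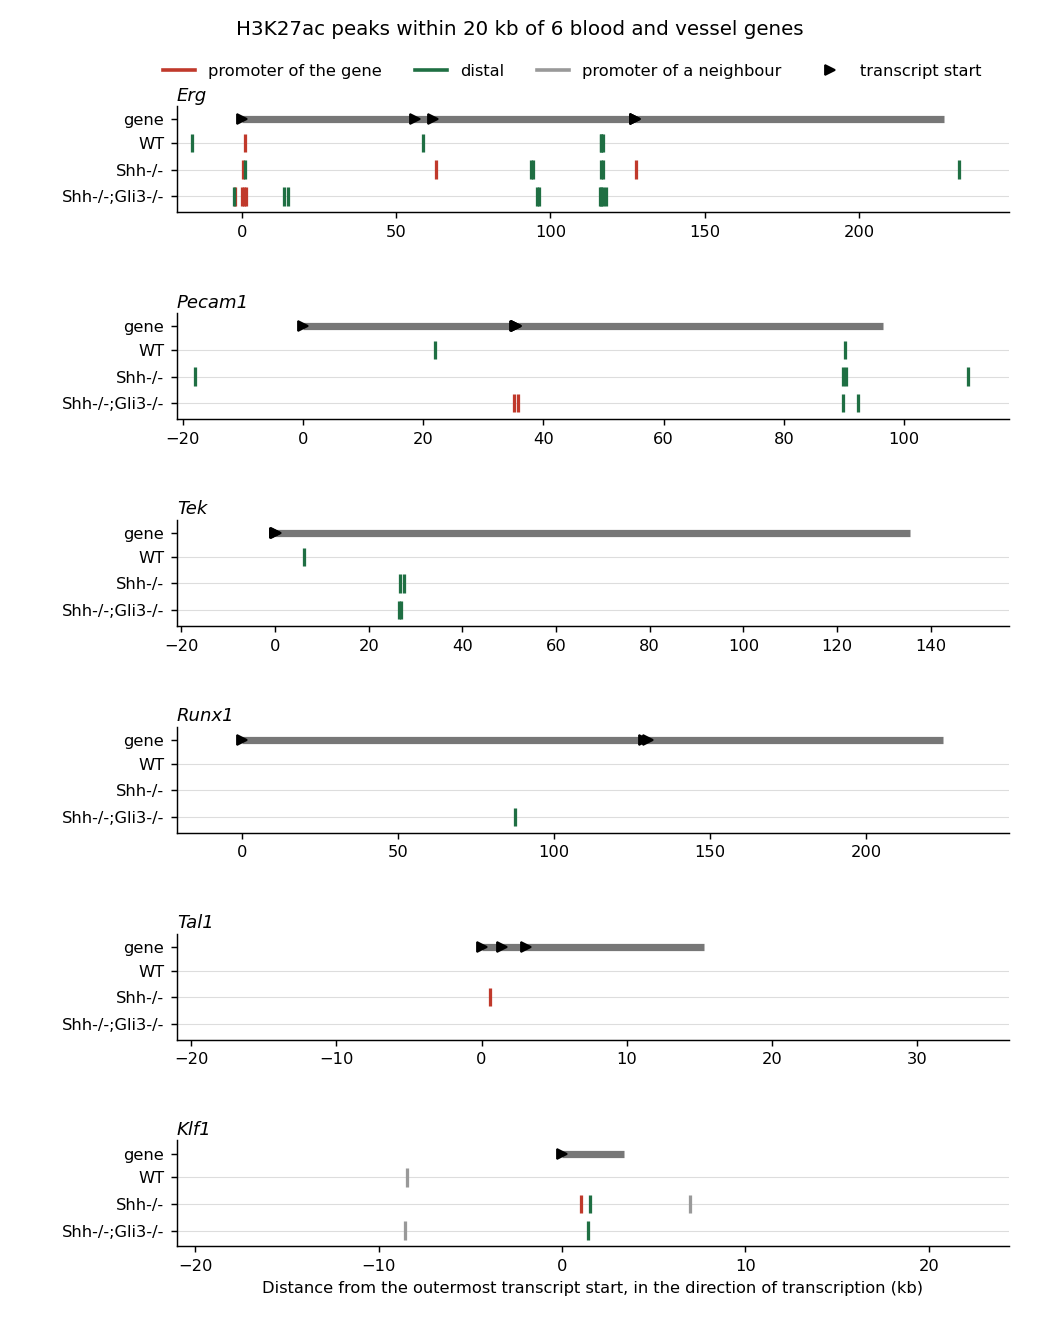
Positions of all peaks within 20 kb of the 6 genes that had a promoter or distal peak, in kb from the outermost transcript start (x axis, another scale for each gene), with a row per peak list. Ticks mark the position of the strongest statistic and do not show peak width. The intron region of Erg 116 to 118 kb from the start and the 3′ region of Pecam1 near 90 kb have ticks in every row, and those of Tek fall at different places in WT and in the mutants.

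The factors shared by blood progenitors and endothelium had few peaks. Tal1 (ENSMUSG00000028717.12, chromosome 4, 115056426 to 115071755, plus strand) had 1 peak, in the Shh-/- list, from 115056950 to 115057099 and 0.599 kb downstream of its first start (150 bp, log2 fold 2.48, FDR 0.0842). The nearest peak in WT lay 55.9 kb upstream, at the promoter of Stil, and in the double mutant 23.0 kb downstream. Runx1 (ENSMUSG00000022952.17, chromosome 16, 92601466 to 92826149, minus strand) had 1 peak, in the double mutant list, from 92738700 to 92739049 in the intron between its distal and proximal starts, 87.4 kb from the former (350 bp, log2 fold 2.37, FDR 0.0161). It was wider than 68.6% of distal peaks of that list. The printed Runx1 sequence holds 2 CAGATG and 1 TGTGGT motif. Gata2 (ENSMUSG00000015053.14, chromosome 6, 88193891 to 88207032, plus strand) had no peak within 20 kb, but a Shh-/- peak of 100 bp (FDR 0.13) lay just outside, 20.02 kb downstream. The nearest WT peak was 79.3 kb and the nearest double mutant peak 109 kb upstream.

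Near both red cell factors, part or all of the peaks belonged to promoters of neighbouring genes. Gata1 (ENSMUSG00000031162.14, chromosome X, 7959260 to 7978071, minus strand) had no promoter or distal peak in any list. Its window held peaks over the promoter of the adjacent Hdac6, 1 of 200 bp in Shh-/- (FDR 0.105) and 2 of 500 and 300 bp in the double mutant (FDRs 0.000889 and 0.00367). The nearest WT peak lay 60.01 kb downstream. Klf1 (ENSMUSG00000054191.8, chromosome 8, 84901928 to 84905291, plus strand) had exon peaks 1.05 to 1.55 kb from its start in the mutants. The Shh-/- list held 2, of 150 bp (84902900 to 84903049) and 100 bp (84903400 to 84903499), each with an FDR of 0.154. The double mutant list held 1 of 100 bp (84903300 to 84903399, FDR 0.104), and WT had none. Its window also held promoter peaks of the neighbours Gcdh in WT (100 bp, FDR 0.168) and the double mutant (200 bp, FDR 0.0158) and Dnase2a in Shh-/- (200 bp, FDR 0.154). None of the Klf1 peaks passed an FDR of 0.05.

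When every peak within 20 kb was considered, neighbours' promoters included, 6 of the 10 genes had none in WT, 4 in Shh-/- and 4 in the double mutant (background 37.6%, 34.5% and 35.5%). Kdr, Cdh5 and Gata2 had none in any list, 3 of 10 against a background of 28.9%. Kdr, Cdh5, Gata1 and Gata2 had neither a promoter nor a distal peak in any list, 4 of 10 against a background of 35.1%. The WT share lay furthest above that of all genes, and with only 10 genes the other shares were close to it. The windows of the 10 genes were longer, which was not adjusted for.

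Promoter and distal peaks were then joined across lists where they lay at most 1 kb apart, which gave 22 regions at 6 genes. Of these, 11 were at Erg, 6 at Pecam1, 2 at Tek and 1 each at Tal1, Klf1 and Runx1. WT peaks lay in 7 regions, Shh-/- peaks in 12 and double mutant peaks in 12. The regions in all lists numbered 3 (2 at Erg and 1 at Pecam1), those in 2 lists also 3 (Tek, Erg and Klf1, each in the mutants), and 16 were in a single list. In the regions at Tek, Erg and Klf1 found in the mutants only, no Shh-/- peak overlapped a double mutant peak, and the joining rule alone put them together. The lowest FDR was below 0.05 in 14 of the 22. By direct overlap of at least 1 bp, 4 of the 9 WT peaks at these genes overlapped a Shh-/- peak (44.4%, against 63.4% of all WT peaks) and 3 a double mutant peak (33.3% against 70.8%). In the other direction 3 of 18 Shh-/- peaks (16.7%, against 48.4% of that list) and 3 of 21 double mutant peaks (14.3%, against 43.3%) overlapped a WT peak. All of the overlaps that involved WT were at Erg. Between the mutants, 4 of 18 Shh-/- peaks (22.2%, against 61.2% of that list) overlapped a double mutant peak. Likewise 4 of 21 double mutant peaks (19.0%, against 49.4%) overlapped a Shh-/- peak, and these overlaps were at Erg and Pecam1. The shares for whole lists include promoter peaks and were not matched to the mostly distal peaks at these genes.

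The peaks stood low in their lists, with a median rank, counted from the strongest peak, of 79.6% in WT, 68.1% in Shh-/- and 66.05% in the double mutant. Most of them were distal, whereas 53.5%, 48.6% and 39.1% of the peaks in these lists were promoter peaks. No rank among distal peaks alone was taken. An FDR of 0.05 was passed by 3 of 9 in WT, 10 of 18 in Shh-/- and 15 of 21 in the double mutant. Their median width was 150, 150 and 200 bp, with a range of 100 bp to 800, 1000 and 800 bp. The best-placed peak was at Erg in WT (13.1%) and Shh-/- (29.7%) and at Tek in the double mutant (33.1%).

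**Figure D4:**
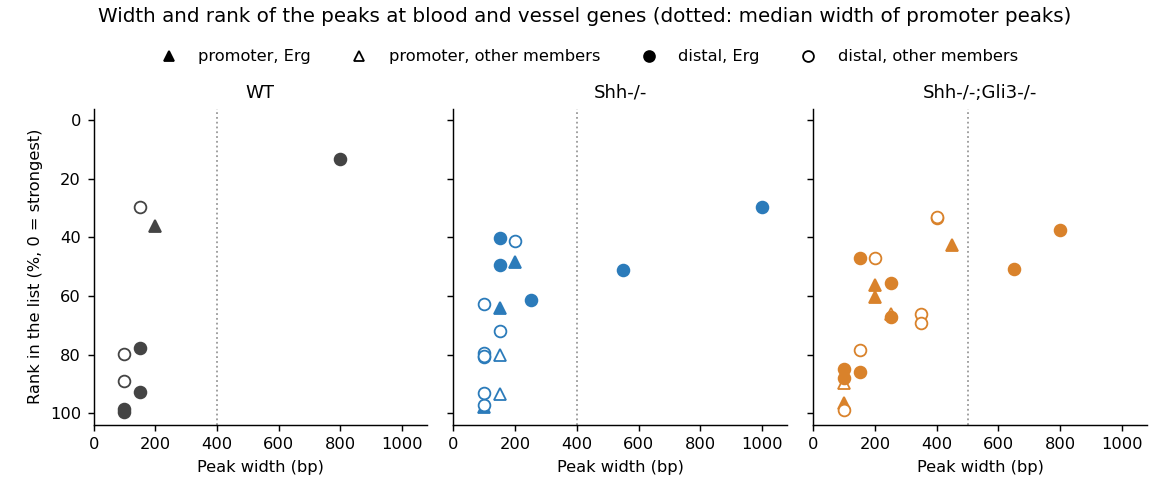
Width in bp (x axis) and rank within the list in percent (y axis, 0 the strongest) of each promoter peak (triangles) and distal peak (circles) at the 10 genes, filled for Erg, with 1 panel per peak list and a dotted line at the median width of all promoter peaks (400, 400 and 500 bp). All points to the right of the line are Erg distal peaks, the farthest at 800, 1000 and 800 bp.

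As a description, short motifs were counted in 300-base windows at the 22 regions and at all distal peaks. In each region the window was placed at the peak with the lowest FDR in any list. That peak did not always have the highest log2 fold of its region. Some of the 22 regions lie at promoters, so the distal windows are not a full match. The ETS motif was in 9 windows (40.9%), against 38.5% of distal windows in WT, 38.9% in Shh-/- and 36.0% in the double mutant. The E-box was in 9 (40.9%), against 22.4%, 22.5% and 22.2%, and the RUNX motif in 7 (31.8%), against 18.9%, 19.3% and 19.0%. The GATA motif was in 1 (4.55%), against 11.3%, 11.8% and 14.5%, and the KLF motif also in 1, against 7.91%, 7.09% and 6.37%. The GLI motif was in 0 of the 22, against 8.73%, 8.0% and 6.76%, and the composite in 0, against 0.634%, 0.777% and 0.811%. Since 11 of the windows belong to 1 gene, they are not independent. Sequences in the RefSeq promoter table matched 8 of the 10 genes, with 13 promoters, and Cdh5 and Pecam1 had no entry. The composite motif was in 1 of the 13, that of Klf1, and in 0.618% of all 32851 promoters of the table. The Klf1 promoter also holds the RUNX, KLF and E-box motifs, which were in 16.8%, 7.95% and 17.2% of all promoters. The Erg promoter at the outermost start holds none of the 7 motifs and the Kdr promoter 1, the E-box.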

How the data were processed

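H3K27ac was profiled by MicroChIP-seq, a protocol for small cell numbers, with 12 cycles of library amplification per the labels. The values are 3 peak lists, 1 per genotype. Per the labels the build is mm10 and the tools include Bowtie2 2.2.5, and the study's methods name CisGenome as peak caller, run with 2 biological replicates. The labels attach each list to replicate 1 and do not state pooling. Depth per library was not analysed here. The deposited columns are the largest log2 fold over the input of that genotype, an FDR (a q-value), the score of the peak caller by which the authors ordered the list (lowest value 3.00), the −log10 of a Poisson p-value (deposited with a ceiling of 100) and the peak width in steps of 50 bp. Peaks that miss the score threshold are not listed, so an empty window does not mean that acetylation was absent. Folds are relative to separate inputs, and single fold values were not compared between lists. The cutoff of a log2 fold of at least 3 was applied to every list, so results at that cutoff do set folds over separate inputs side by side.

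Genes and starts came from GENCODE release M21 (basic set). Every peak on an assembled chromosome ended within its GRCm38 length (25092 in WT, 32077 in Shh-/- and 34635 in Shh-/-;Gli3-/-). The lists do not state whether positions count from 0 or 1, and sequences were read as counted from 1, so they may be off by 1 base. Overlap meant at least 1 bp, and covered length was counted inside the window. A distal peak overlapped no protein-coding promoter window, and peaks over promoters of neighbouring genes were counted apart. Peaks and genes are not replicates, so no test was run. Classification was tested on simulated peaks. Calculations used Python 3.11.15, numpy 2.4.6, pandas 2.3.3 and scipy 1.17.1, and figures matplotlib 3.10.9.

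The 10 genes and the comparison lists were chosen with earlier results of these data known. All 10 genes are named. Of each comparison list, genes were named where the presence of a promoter peak differed between lists (up to 6), or otherwise up to 4 by WT peak width, and further names are examples chosen after their values were seen. Alternatives were an FDR below 0.05, lists shortened to equal covered length or to equal peak numbers, a log2 fold of 3 or more, windows of 10 and 50 kb, a promoter window of 500 bp to either side, and neighbours' promoters counted as distal. Some named items and 1 sequence are not reported here.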

Additional observations from a re-analysis of the deposited data

How the results depend on the processing

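No paired analysis was possible because there is 1 list per genotype without values for single replicates, and for the same reason no replicate could be left out. Merging of peaks within 1 kb and leaving out Erg were alternatives chosen after seeing the data. Of 109 values recomputed under 10 alternatives, 73 stayed within 1.5 times the reported value, 35 moved further and 1 reversed. The number of the 10 genes with a promoter peak was 1, 3 and 2 in the WT, Shh-/- and Shh-/-;Gli3-/- list. It was 0, 0 and 0 with a log2 fold of at least 3. In Shh-/- it was 1 with an FDR below 0.05, with equal numbers, with equal covered length and with the narrow promoter window. It was 0 in WT with that window and without Erg, and in the double mutant 1 without Erg and 0 with equal covered length. Distal peaks (8, 13 and 15) numbered 2 in WT and 8 in Shh-/- with an FDR below 0.05, and 2, 3 and 2 with a log2 fold of at least 3. In Shh-/- they numbered 8 with equal numbers and 5 with equal covered length, and in the double mutant 0 with the latter, a setting that left 9365 of its peaks. After merging there were 7 in Shh-/- and 9 in the double mutant, and without Erg 3, 7 and 6. Their covered length (1650, 3050 and 4400 bp) was 950 bp in WT with an FDR below 0.05, 950, 1350 and 800 bp with a log2 fold of at least 3, 0 bp in the double mutant with equal covered length, 4800 bp in Shh-/- after merging, and 350, 850 and 1550 bp without Erg. The log2 ratio of double mutant over WT length, 1.42 as reported, was 2.06 with an FDR below 0.05, 2.15 without Erg and -0.25 (reversed) with a log2 fold of at least 3, and had no value with equal covered length. The Shh-/- over WT log2 ratio (0.89) ranged from 0.31 to 1.42 and kept its direction in all 10 alternatives. Stricter settings drop peaks by their construction, and for other shifts the cause was not tested.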
